A study of Mus musculus with 9 samples.

Results

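The genes described here encode the subunits, activators, inhibitor and assembly factors of the proteasome. Members were all genes with a probe set whose platform annotation gives 1 gene symbol, where that symbol starts with Psma, Psmb, Psmc, Psmd, Psme, Psmf or Psmg followed by a digit. They were 49 genes with 103 probe sets, of 18193 genes with 34945 such probe sets on the array. RNA was measured in natural killer (NK) cells, innate lymphocytes that kill infected and tumour cells, on 9 Affymetrix arrays, 3 in each of 3 groups. NKDxIL15tg bone marrow and NKDxIL15tg spleen NK cells came from mice with both the NKD and the IL15tg transgenes, and IL15tg spleen NK cells from mice with the IL15tg transgene alone. All 3 groups therefore carry the transgene for interleukin-15, the cytokine that NK cells need to survive. NKD mice lack most mature NK cells, and their transgene lies in the Atf2 locus. The series' design text calls the NKDxIL15tg cells immature and the IL15tg cells mature. Genotype and maturity cannot be told apart in these groups, and no group holds bone marrow cells of IL15tg mice. The promoter of the IL15tg transgene, the age of the mice and whether mice were pooled are not given in the sources used here.

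The proteasome is the protease that degrades proteins tagged with ubiquitin. Its barrel-shaped core has outer rings of alpha subunits (Psma genes) and inner rings of beta subunits (Psmb genes), of which Psmb5, Psmb6 and Psmb7 cut the substrate. A regulatory particle caps the core, with a ring of ATPases (Psmc genes) that unfold the substrate and non-ATPase subunits (Psmd genes) that bind ubiquitin and remove it. In lymphocytes, and elsewhere after interferon-gamma, Psmb8, Psmb9 and Psmb10 take the places of Psmb5, Psmb6 and Psmb7 in newly made cores. The resulting immunoproteasome changes which peptides are made for MHC class I molecules, and Psme1 and Psme2 form an activator ring that opens such cores.

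The members comprised 15 constitutive core genes, 4 immune genes, 17 genes of the regulatory particle and 7 assembly chaperones. A further 4 were the thymic beta subunit Psmb11, the activators Psme3 and Psme4 and the inhibitor Psmf1. The other 2, Psmc3ip (a recombination factor) and Psme3ip1, match by symbol only and are not subunits. The only probe set for Psme2 is shared with another gene symbol, so Psme2 was not analysed here. Each gene was represented by its brightest probe set, and 47 of the 49 genes had a brightest probe set above the filter on low values (a mean log2 intensity of 5.58 over the 9 arrays). The germline alpha subunit Psma8 stayed below it, at intensities of 30.5 to 40.5 in the 9 arrays. The thymic beta subunit Psmb11 did too, with 121 in NKDxIL15tg bone marrow replicate 3 and 29.1 to 39.6 elsewhere. An intensity is the deposited linear brightness of a probe set, which serves to compare arrays and not genes. A gene was called higher or lower where limma's adjusted p was below 0.05.

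NKDxIL15tg bone marrow replicate 3 stood apart from the other arrays, with a median intensity of 64.9 against 56.6 to 59.1 in the others. Its rank correlations with the rest of its group averaged 0.877, against 0.916 to 0.976 for the other arrays within theirs. It was the highest of the 9 arrays for 17 of the 47 tested members (36.2%) and for 32.1% of all genes tested. For Gapdh, the 3' probe set exceeded the 5' one, a measure of RNA length, by a log2 ratio of 1.62 to 1.87 in NKDxIL15tg spleen, against 1.99 to 3.21 in IL15tg spleen. In NKDxIL15tg bone marrow it was 1.87 to 2.33. For actin the same measure was 0.93 to 1.77 in NKDxIL15tg bone marrow, lowest in replicate 3, and 1.54 to 2.03 in NKDxIL15tg spleen, against 1.8 to 2.73 in IL15tg spleen. Its part in the results was not tested.

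In NKDxIL15tg spleen against IL15tg spleen NK cells, the immune subunits Psmb8 and Psmb9 were the members with the largest differences, each more than doubled in mean intensity. Of 47 tested members, 8 were called higher (17.0%) and 1 lower (2.13%), against 7.65% of all 12925 genes tested called higher and 4.87% called lower. Most members leaned the same way: 43 of 47 had a positive log2 difference (91.5%, against 53.7% of all genes), with a median of 0.23 against 0.02. Every NKDxIL15tg spleen array lay above every IL15tg spleen array for 20 of the 47 (42.6%), against 21.3% of all genes. In sorted cells measured in bulk, more cells of a type and more RNA per cell cannot be told apart.

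Psmb8 (also called LMP7) encodes the immune subunit that replaces Psmb5. Its intensity was 1648, 1494 and 1668 in NKDxIL15tg bone marrow and 1350, 1652 and 1178 in NKDxIL15tg spleen, against 659, 628 and 527 in IL15tg spleen. All 6 NKDxIL15tg arrays lay above all 3 IL15tg arrays. The difference between the spleen groups was 1.20 ± 0.15 on the log2 scale (standard error, n = 3 each), or 2.29-fold, with an adjusted p of 0.00117 in limma. A second, dimmer probe set of Psmb8 read 110, 153 and 137 in NKDxIL15tg spleen, against 70.0, 64.9 and 84.6 in IL15tg spleen. It was also called higher, by 0.86 ± 0.23 (limma adjusted p 0.0408).

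Psmb9 (LMP2), which replaces Psmb6, read 1490, 1299 and 1954 in NKDxIL15tg bone marrow and 1394, 1367 and 1089 in NKDxIL15tg spleen, against 598, 630 and 591 in IL15tg spleen. Again the NKDxIL15tg arrays did not overlap the IL15tg arrays. Between the spleen groups Psmb9 was higher by 1.07 ± 0.16 (2.10-fold, limma adjusted p 0.00343). Psmb8, Psmb9 and Psma7 were the 3 of the 9 members called in this comparison that were called whichever of the 9 arrays was left out.

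Psmb10 (MECL-1), which replaces Psmb7, read 1735, 1574 and 1951 in NKDxIL15tg bone marrow and 1535, 1591 and 1412 in NKDxIL15tg spleen, against 1056, 1300 and 1259 in IL15tg spleen. All NKDxIL15tg arrays lay above all IL15tg arrays, but the spleen difference was 0.33 ± 0.13 and missed the threshold (limma adjusted p 0.123). Psme1, a subunit of the activator ring, read 1231, 1230 and 1413 in NKDxIL15tg bone marrow and 1138, 1251 and 874 in NKDxIL15tg spleen, against 1014, 1131 and 1098 in IL15tg spleen. Its spleen arrays overlapped, with a difference of -0.01 ± 0.15 (limma adjusted p 0.991). The sign of that difference turned under some other settings. The 4 immune genes had a median difference of 0.70, a midpoint between 1.07 (Psmb9) and 0.33 (Psmb10).

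**Figure D1:**
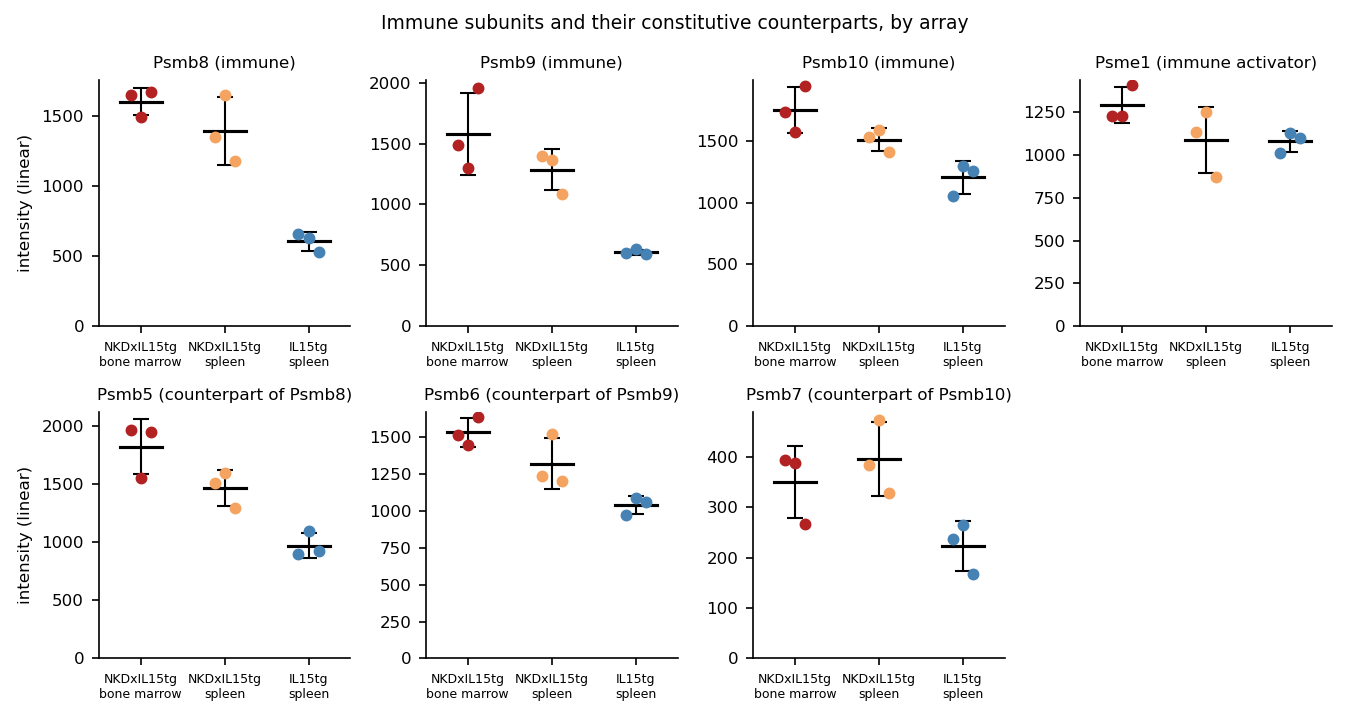
Intensity (linear scale, vertical axes from 0) of the 4 immune genes and of the 3 constitutive catalytic subunits in each array, in NKDxIL15tg bone marrow, NKDxIL15tg spleen and IL15tg spleen. Points are arrays, bars the mean and standard deviation of 3 arrays. Psmb8 and Psmb9 lie at 1089 to 1954 in the 6 NKDxIL15tg arrays, against 527 to 659 in the IL15tg arrays, and Psme1 overlaps between the spleen groups.

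Psmb8 and Psmb9 are neighbours on mouse chromosome 17, in the MHC region. The annotation of protein-coding genes orders Psmb9, Tap1, Psmb8 and Tap2 there without another such gene between them. Tap1 and Tap2 encode the transporter that carries peptides to MHC class I molecules. Psmb5 is on chromosome 14 and Psmb6 on chromosome 11. Promoters are shown for the exchanged pairs, Psmb8 with Psmb5 and Psmb9 with Psmb6, because these pairs carry the difference described next. Each spans 300 bases around the annotated start (RefSeq, GRCm38.p6), 5' to 3' on the gene's strand. Capitals mark matches, on either strand, to any of 3 motifs. The gamma-activated site bound by STAT factors was searched as TTCNNNGAA. The element bound by Nfe2l1 (a factor that raises proteasome genes when proteasomes are blocked) was searched as TGACNNNGC. The interferon-stimulated response element was searched as GAAA, any pair of bases and GAAA. The Psmb8 promoter lies at chr17:34197945-34198244 on the plus strand, Psmb5 at chr14:54617946-54618245 on the minus strand, Psmb9 at chr17:34187281-34187580 on the minus strand and Psmb6 at chr11:70525107-70525406 on the plus strand.
Psmb8: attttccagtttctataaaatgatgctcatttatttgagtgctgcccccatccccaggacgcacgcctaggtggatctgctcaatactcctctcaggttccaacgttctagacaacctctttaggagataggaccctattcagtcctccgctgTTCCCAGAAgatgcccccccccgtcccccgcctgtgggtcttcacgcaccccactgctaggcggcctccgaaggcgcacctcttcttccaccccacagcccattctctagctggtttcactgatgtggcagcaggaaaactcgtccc
Psmb5: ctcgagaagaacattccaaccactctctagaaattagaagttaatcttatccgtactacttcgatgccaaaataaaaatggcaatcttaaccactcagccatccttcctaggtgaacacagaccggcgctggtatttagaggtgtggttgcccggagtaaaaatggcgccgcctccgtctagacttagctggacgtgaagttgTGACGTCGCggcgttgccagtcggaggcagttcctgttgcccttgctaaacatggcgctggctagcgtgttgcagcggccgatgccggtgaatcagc
Psmb9: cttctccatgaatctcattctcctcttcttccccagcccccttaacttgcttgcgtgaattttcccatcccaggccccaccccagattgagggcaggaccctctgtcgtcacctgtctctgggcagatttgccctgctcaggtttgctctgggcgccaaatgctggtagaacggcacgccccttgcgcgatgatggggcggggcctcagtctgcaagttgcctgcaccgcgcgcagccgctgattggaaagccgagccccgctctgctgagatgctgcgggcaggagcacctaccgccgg
Psmb6: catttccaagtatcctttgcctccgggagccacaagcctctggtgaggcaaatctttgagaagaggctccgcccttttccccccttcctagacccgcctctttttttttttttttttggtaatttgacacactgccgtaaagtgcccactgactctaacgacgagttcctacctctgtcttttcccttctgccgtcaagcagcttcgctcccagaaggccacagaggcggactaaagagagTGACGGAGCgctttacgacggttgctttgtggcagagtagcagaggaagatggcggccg

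The Psmb8 window held 1 match to the gamma-activated site, TTCCCAGAA, at position -97 from the annotated start. Psmb5 held TGACGTCGC at position -47, and Psmb6 held TGACGGAGC at position -9. None of the 3 motifs was found in the Psmb9 window. Of 32851 promoters in the RefSeq table, 8.30% held the gamma-activated site, 12.4% the Nfe2l1 element and 3.44% the interferon-stimulated element. Of the 44 promoters found for 41 member genes, 6.82%, 13.6% and 11.4% held them in that order. The matches describe letters in these windows and were not tested against the changes.

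Of the constitutive counterparts, Psmb5 (the chymotrypsin-like site) read 1969, 1553 and 1954 in NKDxIL15tg bone marrow and 1509, 1595 and 1293 in NKDxIL15tg spleen, against 897, 1097 and 923 in IL15tg spleen. It was called higher between the spleens, by 0.59 ± 0.14 (1.51-fold, limma adjusted p 0.0261). The call was lost when IL15tg spleen replicate 1 or 3, or NKDxIL15tg spleen replicate 1 or 2, was left out (0.53 to 0.57, limma adjusted p 0.0743 to 0.104), and with a floor of 64 (0.0715). Psmb7 (the trypsin-like site) read 394, 388 and 267 in NKDxIL15tg bone marrow and 384, 473 and 329 in NKDxIL15tg spleen, against 236, 264 and 168 in IL15tg spleen. It was called higher between the spleens, by 0.84 ± 0.22 (1.79-fold, limma adjusted p 0.0384), and the spleen groups did not overlap. That call was lost without NKDxIL15tg spleen replicate 1 or 2 or without any 1 of the IL15tg arrays (0.65 to 0.97, limma adjusted p 0.0568 to 0.135), and with either scaling, with a floor of 64 and without the filter (limma adjusted p 0.0631 to 0.142). Psmb6 (the caspase-like site) read 1517, 1446 and 1638 in NKDxIL15tg bone marrow and 1240, 1522 and 1204 in NKDxIL15tg spleen, against 975, 1092 and 1064 in IL15tg spleen. Its spleen groups did not overlap either, but its difference of 0.33 ± 0.12 was not called (limma adjusted p 0.107).

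To set each immune subunit against the one it replaces, the log2 intensity of the constitutive gene was subtracted from that of the immune gene within each array. Such a value compares arrays and is not the ratio of the 2 RNAs. For Psmb8 minus Psmb5 it was -0.26, -0.06 and -0.23 in NKDxIL15tg bone marrow and -0.16, 0.05 and -0.13 in NKDxIL15tg spleen, against -0.44, -0.81 and -0.81 in IL15tg spleen. All NKDxIL15tg arrays lay above all IL15tg arrays, with a difference of 0.60 between the spleens. For Psmb9 minus Psmb6 it was -0.03, -0.15 and 0.25 in NKDxIL15tg bone marrow and 0.17, -0.15 and -0.14 in NKDxIL15tg spleen, against -0.71, -0.79 and -0.85 in IL15tg spleen. These arrays did not overlap either, and the spleens differed by 0.74.

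The third pair went the other way. Psmb10 minus Psmb7 was 2.14, 2.02 and 2.87 in NKDxIL15tg bone marrow and 2.00, 1.75 and 2.10 in NKDxIL15tg spleen, against 2.16, 2.30 and 2.91 in IL15tg spleen. The NKDxIL15tg spleen arrays lay below all IL15tg spleen arrays, by 0.50 on average (a difference of -0.50), and the bone marrow arrays overlapped them. Without IL15tg spleen replicate 3 the spleen difference was -0.28. Each of the 3 spleen differences had a two-sided exact permutation p of 0.1, the smallest that 3 against 3 arrays allow, and 0.18 after Benjamini-Hochberg adjustment over 9 comparisons. No pair could therefore pass the threshold in this design.

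**Figure D2:**
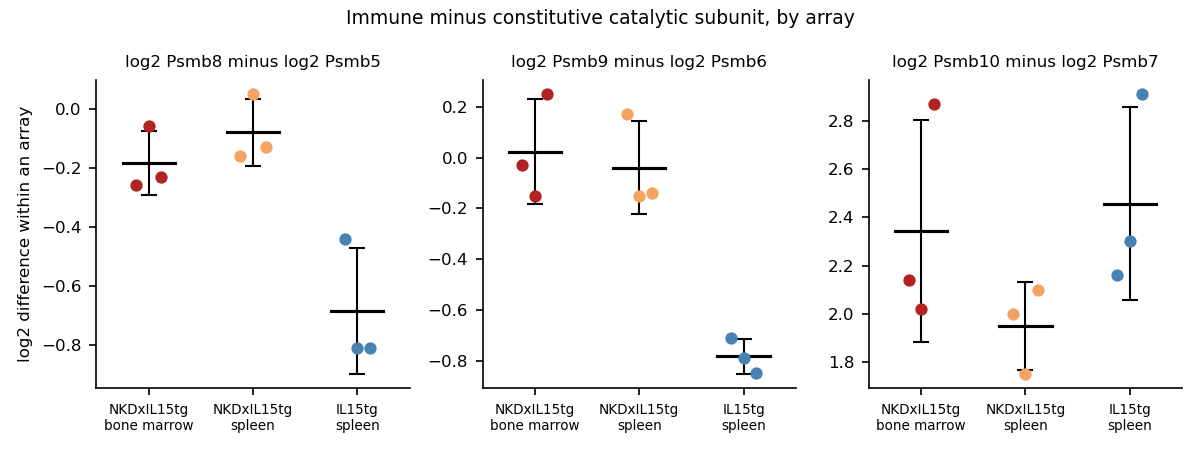
Log2 intensity of the immune subunit minus that of the constitutive subunit it replaces, within each array (vertical axes, log2 units), in NKDxIL15tg bone marrow, NKDxIL15tg spleen and IL15tg spleen. Points are arrays, bars the mean and standard deviation of 3 arrays. The Psmb8 and Psmb9 pairs lie at -0.26 to 0.25 in the NKDxIL15tg arrays, against -0.85 to -0.44 in the IL15tg arrays, and the Psmb10 pair is lower in NKDxIL15tg spleen than in IL15tg spleen.

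Among the 14 tested constitutive core genes, 3 were called higher between the spleens (Psma7, Psmb5, Psmb7) and none lower. Over all genes tested, 7.65% were called higher and 4.87% lower. The 14 had a median difference of 0.23. All 14 differences were positive, from 0.01 (Psma5) to 0.84 (Psmb7), with the share over all genes given above. Psma7, an alpha ring subunit, read 979, 1089 and 917 in NKDxIL15tg bone marrow and 909, 1078 and 961 in NKDxIL15tg spleen, against 578, 617 and 657 in IL15tg spleen. The NKDxIL15tg arrays lay well clear of the IL15tg arrays, and the spleen difference was 0.67 ± 0.12 (1.59-fold, limma adjusted p 0.00619). Its second probe set was called higher as well, by 0.72 ± 0.13 (limma adjusted p 0.00736). The other 6 alpha genes, which build the same ring, had spleen differences of 0.01 to 0.24 and were not called. None of the 4 structural beta genes was called, with differences of 0.10 (Psmb3) to 0.48 (Psmb2).

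Of 17 regulatory particle genes, 2 were called higher between the spleens (11.8%, against 7.65% of all genes tested) and none lower, with a median difference of 0.16. Psmd1 (Rpn2), the scaffold that holds ubiquitin receptors, read 726, 817 and 653 in NKDxIL15tg bone marrow and 732, 787 and 655 in NKDxIL15tg spleen, against 492, 392 and 480 in IL15tg spleen. Its NKDxIL15tg arrays did not overlap the IL15tg arrays, and the spleen difference was 0.68 ± 0.14 (1.60-fold, limma adjusted p 0.0129). Psmd14 (Rpn11), the enzyme that cuts ubiquitin chains off the substrate, read 2716, 2701 and 2568 in NKDxIL15tg bone marrow and 2388, 2519 and 2427 in NKDxIL15tg spleen, against 1866, 2003 and 1853 in IL15tg spleen. Its replicates lay close together, and the spleen difference of 0.36 ± 0.09 was called (limma adjusted p 0.0335). With the replicate number as a block the adjusted p was 0.0505, and the call was also lost after quantile normalization or scaling to a common 75th percentile.

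By brightest probe set, none of the 6 ATPases was called between the spleens. Their median difference was 0.12, with a range of 0.03 (Psmc4) to 0.26 (Psmc1). The brightest of them, Psmc2 (Rpt1), read 2570, 2991 and 2182 in NKDxIL15tg bone marrow and 2613, 2545 and 2711 in NKDxIL15tg spleen, against 2434, 2437 and 2449 in IL15tg spleen. Its brightest probe set differed by 0.10 ± 0.12 between the spleens, while a dim one read 79.1, 55.9 and 74.8 in NKDxIL15tg spleen, against 97.0, 101 and 116 in IL15tg spleen. That dim probe set was called lower, by -0.59 ± 0.16 (limma adjusted p 0.0379). The remaining probe set of Psmc2 differed by 0.28 ± 0.11 and was not called, so the probe sets of Psmc2 disagree. For Psmc6, a dim probe set was called higher, by 0.82 ± 0.23 (limma adjusted p 0.045). Its brightest (0.14 ± 0.12) and its remaining tested probe set (0.53 ± 0.2) were not called.

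The assembly chaperones include the only member called lower. Psmd9, a chaperone of the regulatory particle's ATPases, read 74.7, 115 and 61.8 in NKDxIL15tg bone marrow and 97.9, 69.0 and 107 in NKDxIL15tg spleen, against 218, 153 and 176 in IL15tg spleen. All IL15tg arrays lay above the others, with a spleen difference of -1.01 ± 0.26 (limma adjusted p 0.0316), and 0.0555 with the replicate number as a block. Its other 2 probe sets, with similarly low intensities, differed by 0.17 ± 0.17 and -0.02 ± 0.12 and were not called, so the lower call rests on 1 of 3 probe sets. It was also lost with a floor of 64 (limma adjusted p 0.122) and without the filter (0.0655). With the mean of a gene's tested probe sets in place of the brightest, Psmd9 was not called in any comparison. The probe set called lower was the brightest of Psmd9 mainly through IL15tg spleen, where it averaged 182, against 77.5 for the next. The means were 91.4 and 87.8 in NKDxIL15tg spleen, and 83.9 and 108 in NKDxIL15tg bone marrow. Its choice and its lower call are therefore not independent.

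Psmg2, a chaperone that pairs with Psmg1 to build the alpha ring, read 325, 338 and 274 in NKDxIL15tg bone marrow and 239, 294 and 251 in NKDxIL15tg spleen, against 170, 200 and 201 in IL15tg spleen. All NKDxIL15tg arrays lay above all IL15tg arrays, and the spleen difference of 0.46 ± 0.13 just missed the threshold (limma adjusted p 0.0527). A dimmer probe set of Psmg2 was called higher, by 0.88 ± 0.17 (limma adjusted p 0.00968). Its partner Psmg1 differed by 0.59 ± 0.21 (limma adjusted p 0.0995), and 0.0387 with the replicate number as a block.

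Outside the core and cap, Psmf1, an inhibitor of the core (PI31), read 164, 171 and 185 in NKDxIL15tg bone marrow and 182, 191 and 165 in NKDxIL15tg spleen, against 126, 129 and 127 in IL15tg spleen. It was called higher between the spleens, by 0.49 ± 0.10 (1.41-fold, limma adjusted p 0.0138). Its other 2 tested probe sets differed by 0.45 ± 0.14 and 0.13 ± 0.15 and were not called. Psme4 (PA200), an activator found in nuclei, read 597, 569 and 943 in NKDxIL15tg bone marrow and 636, 574 and 671 in NKDxIL15tg spleen, against 631, 623 and 638 in IL15tg spleen. Its spleen groups overlapped, with a difference of -0.01 ± 0.18.

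How many members were called between the spleens depended on single arrays, as did the count over all probe sets. Of the 9 members called, 3 or 4 remained without NKDxIL15tg spleen replicate 2 (3), IL15tg spleen replicate 1 (4) or IL15tg spleen replicate 2 (4), and 5 without IL15tg spleen replicate 3 or NKDxIL15tg spleen replicate 1. Psmd9 lost its call in each of these (-1.12 to -0.82, limma adjusted p 0.0619 to 0.122), as did Psmd14. Psmd1 lost it without replicate 2 of either group (limma adjusted p 0.0565 and 0.0512), and Psmf1 without those or IL15tg spleen replicate 1 (limma adjusted p 0.0506 to 0.057). Psmd14 also lost it without NKDxIL15tg spleen replicate 3 or NKDxIL15tg bone marrow replicate 1. Without NKDxIL15tg bone marrow replicate 3, whose values enter the shared estimate of spread, 11 members were called higher and 1 lower. Over all probe sets, 3725 were called with every array and 5511 without that one. The count was 1777, 1784 and 2047 without IL15tg spleen replicate 1, 2 or 3. It was 2810 and 2116 without NKDxIL15tg spleen replicate 1 or 2.

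NKDxIL15tg bone marrow and NKDxIL15tg spleen NK cells, which share their genotype, did not differ in any tested member past the threshold. In limma 0 of 47 members were called higher and 0 lower, where 0.0232% of all genes tested were called higher and 0.0464% lower. At an unadjusted p below 0.05 there were 2 of 47 members (4.26%), against 10.9% of all genes tested. The median difference was 0.13 over the members and 0.03 over all genes. For 3 members (6.38%) every bone marrow array lay above every spleen array, against 10.8% of all genes. With the mean of a gene's probe sets the count of called members was 0 as well, and it was 0 under every alternative run.

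The immune genes differed between bone marrow and spleen by 0.21 ± 0.15 (Psmb8), 0.29 ± 0.16 (Psmb9), 0.21 ± 0.13 (Psmb10) and 0.26 ± 0.15 (Psme1), with overlapping arrays in each case. Psmb5 differed by 0.31 ± 0.14, Psmb6 by 0.22 ± 0.12 and Psmb7 by -0.18 ± 0.22. Without NKDxIL15tg bone marrow replicate 3, the differences of Psmb9 and Psmb10 were both 0.13 and that of Psmb7 was 0.00, and the others lay between 0.17 and 0.26. These values miss the threshold, and with standard errors of this size they do not show that the organs are alike. Psmd4 (Rpn10), a ubiquitin receptor of the cap, differed by 0.44 ± 0.16 (limma adjusted p 0.457), and by 0.27 without NKDxIL15tg bone marrow replicate 3. It read 842, 800 and 1161 in NKDxIL15tg bone marrow, against 669, 747 and 631 in NKDxIL15tg spleen, without overlap. The other tested probe sets of Psmd4 differed by 0.38 ± 0.23 and 0.01 ± 0.1, each with overlapping arrays. Over all probe sets, 14 were called in this comparison, and 23 with the replicate number as a block.

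NKDxIL15tg bone marrow against IL15tg spleen, which differ in organ as well as genotype and maturity, gave the most calls among the members. Of the 47 tested, 17 were called higher (36.2%) and 1 lower (2.13%), where 11.5% of all genes tested were called higher and 8.70% lower. The median difference was 0.42 over the members and 0.12 over all genes. As the median over all genes was above 0 too, the 44 of 47 positive differences are not by themselves a result about the members. Every bone marrow array lay above every IL15tg spleen array for 28 members (59.6%), against 25.4% of all genes. This comparison uses the same IL15tg arrays as that between the spleens, so its values are given beside those and add no independent evidence.

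All 3 immune core subunits were called higher in bone marrow. Psmb8 differed by 1.41 ± 0.15 (2.66-fold, limma adjusted p 0.000351), Psmb9 by 1.36 ± 0.16 (2.57-fold, 0.000714) and Psmb10 by 0.54 ± 0.13 (1.46-fold, 0.0165). The Psmb10 call was lost without IL15tg spleen replicate 1. Psme1 had all bone marrow arrays above all IL15tg spleen arrays but was not called, at 0.25 ± 0.15 (limma adjusted p 0.233). The dimmer probe set of Psmb8 was not called in this comparison either, at 0.58 ± 0.23 (limma adjusted p 0.112). Within arrays, Psmb8 minus Psmb5 was 0.51 higher and Psmb9 minus Psmb6 was 0.81 higher in bone marrow than in IL15tg spleen. Psmb10 minus Psmb7 differed by -0.11 with overlap, or by 0.11 without IL15tg spleen replicate 3. The value of the Psmb8 pair rests on its brightest probe set. The dimmer one differed by less (0.58 ± 0.23) than Psmb5 did (0.91 ± 0.14).

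Of 14 constitutive core genes, 6 were called higher in bone marrow than in IL15tg spleen (42.9%) and none lower. Over all genes tested, 11.5% were called higher and 8.7% lower. The median was 0.37 over the 14 genes, and that over all genes is given above. Psmb5 differed by 0.91 ± 0.14 (1.87-fold, limma adjusted p 0.00272) and Psmb6 by 0.55 ± 0.12 (1.47-fold, 0.0125). Psmb7, at 0.65 ± 0.22, was not called (limma adjusted p 0.068), but was without NKDxIL15tg bone marrow replicate 3 (0.84, limma adjusted p 0.0167). Among the structural beta subunits, Psmb2 read 569, 454 and 591 in NKDxIL15tg bone marrow, against 303, 298 and 330 in IL15tg spleen. Its arrays lay apart, and the difference was 0.79 ± 0.17 (1.72-fold, limma adjusted p 0.0127). Psmb1 (0.62 ± 0.13) and Psmb4 (0.42 ± 0.12) were called higher too, and Psmb3 at 0.14 ± 0.12 was not. A less bright probe set of Psmb3 was called higher, by 0.54 ± 0.15 (limma adjusted p 0.0354). Those of Psmb1 (0.19 ± 0.25) and Psmb4 (0.22 ± 0.12) were not called. In the alpha ring, Psma7 was the only gene called by its brightest probe set, at 0.69 ± 0.12 (limma adjusted p 0.00379), with the other 6 between -0.07 (Psma5) and 0.32 (Psma6). Psma6 was called higher by 2 less bright probe sets, at 0.42 ± 0.12 (limma adjusted p 0.0402) and 0.48 ± 0.12 (limma adjusted p 0.0239), and by the mean of its probe sets.

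Of the 17 regulatory particle genes, 6 were called higher in bone marrow than in IL15tg spleen (35.3%, against 11.5% of all genes tested), with a median of 0.42. They were the non-ATPase genes Psmd1 (0.69 ± 0.14), Psmd2 (0.97 ± 0.24), Psmd3 (0.44 ± 0.12), Psmd7 (0.61 ± 0.19) and Psmd14 (0.48 ± 0.09) and 1 of the 6 ATPases, Psmc1 (0.47 ± 0.11). For Psmc2, whose brightest probe set was not called, a further one was called higher (0.37 ± 0.11) and another lower (-0.52 ± 0.16). Psmd2 (Rpn1), a scaffold that docks ubiquitin receptors, read 477, 454 and 852 in NKDxIL15tg bone marrow, against 320, 307 and 249 in IL15tg spleen. The third bone marrow array was much higher than the others. Without it the difference was 0.68, against 0.97 with it, and the limma adjusted p was 0.0154, against 0.0221. Psmg2 was called higher, by 0.71 ± 0.13 (limma adjusted p 0.0062), Psmf1 by 0.45 ± 0.10 (0.0148), and Psmd9 lower, by -1.15 ± 0.26 (0.0131). The other tested probe sets of Psmf1 differed by 0.00 ± 0.14 and 0.03 ± 0.15 here, and those of Psmd9 by 0.46 ± 0.17 and 0.23 ± 0.12.

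Of the 18 members called in this comparison, 8 were called whichever array was left out: Psma7, Psmb1, Psmb5, Psmb8, Psmb9, Psmd1, Psmd14 and Psmg2. Without IL15tg spleen replicate 1 alone, 8 of the 18 remained, with Psmb2, Psmb4, Psmb6, Psmb10, Psmc1, Psmd2, Psmd3, Psmd7, Psmd9 and Psmf1 lost. Psmb2, Psmb4, Psmd2, Psmd3, Psmd7 and Psmf1 were also lost without IL15tg spleen replicate 2, and Psmc1, Psmd2, Psmd3 and Psmd7 without replicate 3. Leaving out a bone marrow array ended the call of Psmb4 and Psmd3 (replicate 1), of Psmb4, Psmc1 and Psmd7 (replicate 2) or of Psmd3 and Psmd7 (replicate 3), and Psmd7 was lost without NKDxIL15tg spleen replicate 1 or 3 too. Without NKDxIL15tg bone marrow replicate 3, 21 members were called higher and 1 lower. Scaling to a common 75th percentile left 12 of the 18 called, without Psmb4, Psmc1, Psmd3, Psmd7, Psmd14 and Psmf1. A floor of 64 left 13, without Psmb2, Psmd2, Psmd3, Psmd7 and Psmd9, and quantile normalization left 15, without Psmb4, Psmc1 and Psmd3. With all arrays kept, Psmd7 was also lost with no filter, with array weights and in a fit of only the 2 groups, which lost Psmb4 too, and Psmd3 with the replicate block.

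**Figure D3:**
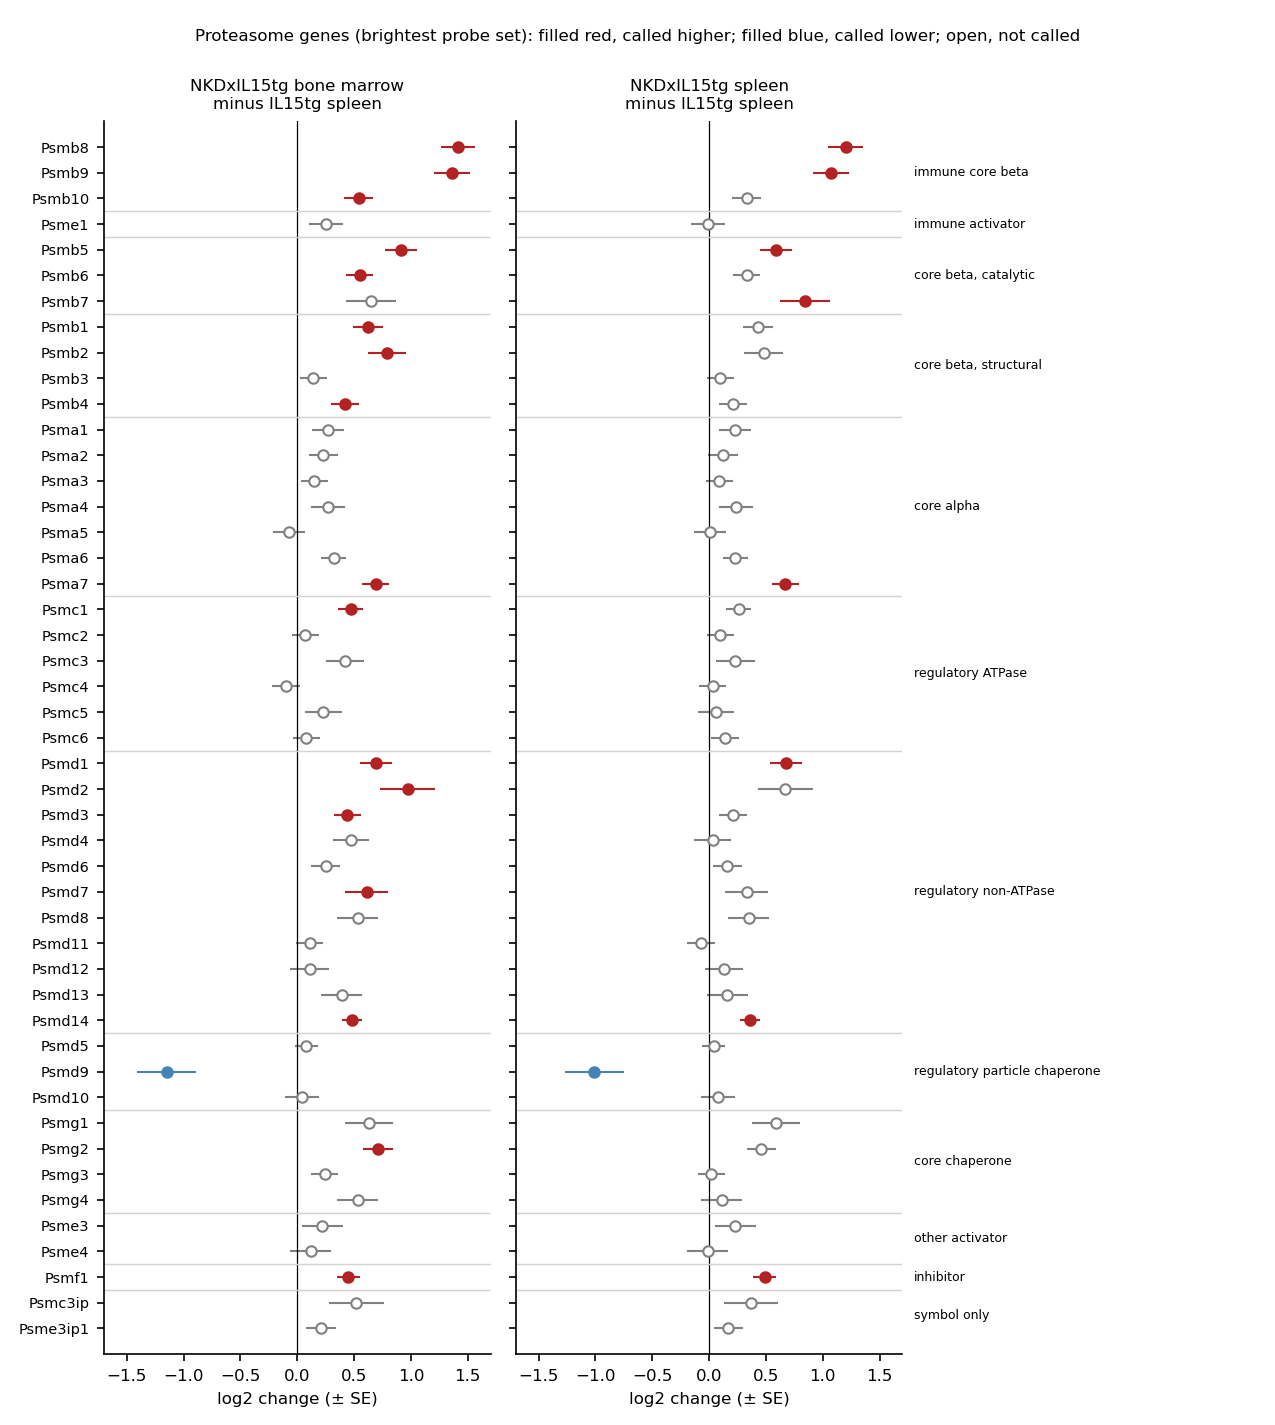
Log2 difference with its standard error (horizontal axes) of the 47 tested members, by role, in NKDxIL15tg bone marrow minus IL15tg spleen (left) and NKDxIL15tg spleen minus IL15tg spleen (right). Filled red points were called higher, filled blue points lower, and open points were not called. Psmb8 and Psmb9 lie farthest to the right in both panels, Psmd9 is the only blue point, and the panels share the IL15tg arrays.

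The median position of each class, taken over its genes after subtracting each gene's mean over the 9 arrays, separated the immune class most widely. It was 0.36, 0.20 and 0.51 in NKDxIL15tg bone marrow and 0.18, 0.25 and -0.01 in NKDxIL15tg spleen, against -0.61, -0.47 and -0.53 in IL15tg spleen (log2). For the constitutive core it was 0.21, 0.20 and 0.04 in NKDxIL15tg bone marrow and -0.02, 0.18 and 0.02 in NKDxIL15tg spleen, against -0.39, -0.16 and -0.09 in IL15tg spleen. For the regulatory particle it was 0.17, 0.10 and 0.15 in NKDxIL15tg bone marrow and 0.02, 0.17 and -0.04 in NKDxIL15tg spleen, against -0.29, -0.06 and -0.22 in IL15tg spleen. In all 3 classes the 3 lowest arrays were the IL15tg arrays. NKDxIL15tg spleen replicate 2 was the highest array of its group in each. The chaperones overlapped between the spleen groups, at -0.16 to 0.23 in NKDxIL15tg spleen, against -0.27 to -0.04 in IL15tg spleen. The immune class holds 4 genes, with spleen differences of 1.20 (Psmb8), 1.07 (Psmb9), 0.33 (Psmb10) and -0.01 (Psme1). Its wide gap thus rests on Psmb8 and Psmb9 and is not shared by all its genes.

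**Figure D4:**
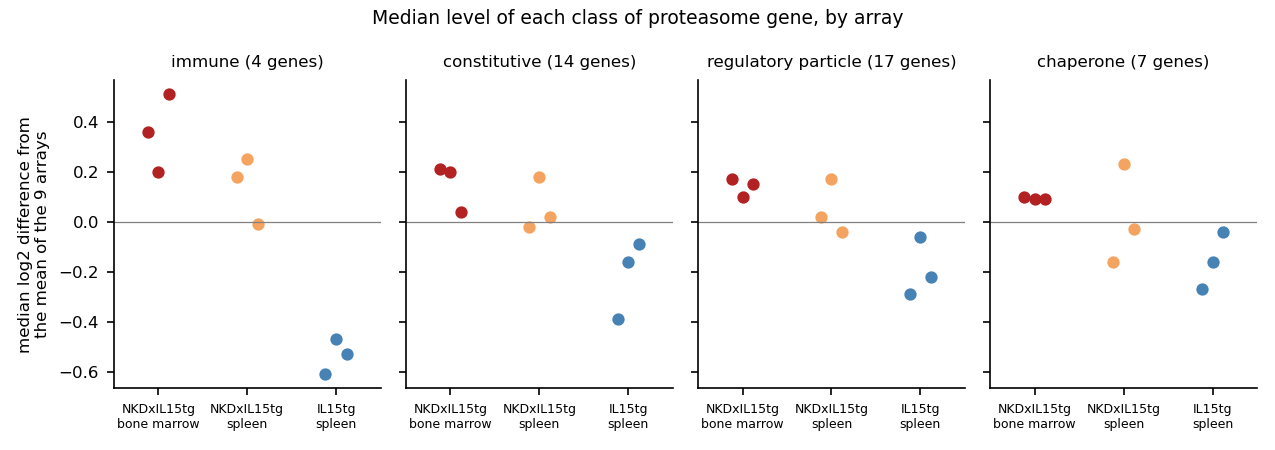
Median over the genes of a class of the log2 difference from each gene's own mean over the 9 arrays (vertical axis, log2 units), for immune, constitutive core, regulatory particle and chaperone genes. Points are arrays of NKDxIL15tg bone marrow, NKDxIL15tg spleen and IL15tg spleen. The immune genes lie at -0.01 to 0.51 in the NKDxIL15tg arrays, against -0.61 to -0.47 in the IL15tg arrays, a wider gap than in the other 3 classes. That gap rests on Psmb8 and Psmb9.

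Probe sets of 1 gene did not always move together. The 22 members with more than 1 tested probe set had 37 further ones, of which 24 had the sign of the brightest between the spleens and 27 in bone marrow against IL15tg spleen. Between the spleens, 4 further probe sets were called in the direction of the brightest and 1 in the opposite direction (Psmc2). For bone marrow against IL15tg spleen these counts were 7 and 2 (Psmc2 and Psma3). With the mean of each gene's probe sets, 9 members were called higher between the spleens and none lower, and 16 were called higher and none lower in bone marrow against IL15tg spleen.

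Proteasome partners serve the proteasome but are not members (maturation, ubiquitin shuttles, deubiquitinases, transcription factors). Of 19 tested, 1 was called higher between the spleens and none lower, against 7.65% and 4.87% of all genes tested. It was Ngly1, the deglycosylase that processes Nfe2l1, with a mean intensity of 1781 in NKDxIL15tg spleen and 875 in IL15tg spleen and a difference of 1.02 ± 0.13 (limma adjusted p 0.00162). In bone marrow against IL15tg spleen, 2 were called higher and 2 lower, against 11.5% and 8.7% of all genes tested. Pomp, the maturation factor of new cores, was higher by 0.47 ± 0.14 (limma adjusted p 0.0445), and Ngly1 by 0.78 ± 0.13. Nfe2l1, which drives proteasome genes, was lower by -0.43 ± 0.12 (limma adjusted p 0.0329), and Zfand5, a proteasome activator, by -0.95 ± 0.14 (limma adjusted p 0.00215).

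The interferon pathway genes that control the immunoproteasome were called in both directions. Of 9 tested, 1 was called higher and 2 lower between the spleens, against 7.65% and 4.87% of all genes tested. Nlrc5, the activator of MHC class I genes and Psmb9, was higher by 0.75 ± 0.18 (limma adjusted p 0.0275). Irf8, an interferon regulatory factor, was lower by -1.06 ± 0.15 (limma adjusted p 0.00209), and the interferon-gamma receptor Ifngr1 by -0.85 ± 0.22 (limma adjusted p 0.034). Irf1, the factor that binds the Psmb9 promoter, differed by -0.10 ± 0.12 and was not called. In bone marrow against IL15tg spleen, none was called higher and 2 lower (again Irf8 and Ifngr1), against 11.5% and 8.7% of all genes tested.

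Genes that supply peptides to MHC class I lay partly beside these in the genome. Of 8 tested, 1 was called higher between the spleens, against 7.65% of all genes tested. It was the chaperone Canx (0.49 ± 0.14, limma adjusted p 0.0454). Tap1, which lies between Psmb9 and Psmb8, had a mean intensity of 751 in NKDxIL15tg spleen and 505 in IL15tg spleen, a difference of 0.57 ± 0.17 that missed the threshold (limma adjusted p 0.0533). In bone marrow against IL15tg spleen it was called higher, by 0.58 ± 0.17 (limma adjusted p 0.0377), with Pdia3 (0.77 ± 0.21, 0.0327). The share called higher there over all genes tested was 11.5%. Tap2 differed by 0.47 ± 0.18 between the spleens and 0.52 ± 0.18 in bone marrow against IL15tg spleen, and was not called in either.

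Other programmes moved between the same groups. Of 23 tested cell division genes, 21 were called higher in NKDxIL15tg spleen than in IL15tg spleen (median 0.99) and 22 in bone marrow than in IL15tg spleen (median 1.63). The shares over all genes tested were 7.65% and 11.5%. Summed intensity was taken over all listed genes with a probe set of their own, tested or not. For 24 cell division genes it was 21133 to 23097 in NKDxIL15tg bone marrow and 13728 to 18224 in NKDxIL15tg spleen. In IL15tg spleen it was 8844 to 10143. Granulocyte and monocyte markers were called higher in 7 of 16 between the spleens, in 3 of 16 between NKDxIL15tg bone marrow and spleen and in 14 of 16 in bone marrow against IL15tg spleen. Over all genes tested those shares were 7.65%, 0.0232% and 11.5%. The summed intensity of 17 such markers was 13301 to 35479 in NKDxIL15tg bone marrow and 3966 to 9169 in NKDxIL15tg spleen. In IL15tg spleen it was 1626 to 1967. The part of either programme in the proteasome differences was not tested.

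The other marker lists were smaller or moved less. For scale, 7.65% of all genes tested were called higher and 4.87% lower between the spleens. The shares were 11.5% and 8.7% in bone marrow against IL15tg spleen. Erythroid markers were called higher in 3 of 8 between the spleens and in 4 of 8 in bone marrow against IL15tg spleen. The summed intensity of 9 erythroid markers was 5676 to 7619 in NKDxIL15tg bone marrow and 7695 to 8286 in NKDxIL15tg spleen. In IL15tg spleen it was 1890 to 2045, and most of each sum came from Car2. For T cells 1 of 7 markers was called higher in each of these comparisons. B cell markers were called lower in 5 of 10, and macrophage and dendritic cell markers in 6 of 15, between the spleens. In bone marrow against IL15tg spleen those counts were 5 of 10 and 7 of 15, with 1 B cell marker higher. Of 13 tested NK cell markers, 3 were called lower between the spleens (the receptors Klrk1 and Klrd1 and the factor Tbx21) and 4 in bone marrow against IL15tg spleen (these and Prf1). Their summed intensity was 31949 to 34513 in NKDxIL15tg bone marrow and 36932 to 40091 in NKDxIL15tg spleen, against 48634 to 50478 in IL15tg spleen. The median difference of the 13 was -0.24 between the spleens and -0.46 in bone marrow against IL15tg spleen. Klrk1, the gene of the activating receptor NKG2D, averaged 196 in NKDxIL15tg bone marrow and 173 in NKDxIL15tg spleen, against 1383 in IL15tg spleen. Nkg7, Gzma and Tyrobp were not called in either comparison, with Nkg7 at mean intensities of 4768 in NKDxIL15tg bone marrow and 4832 in NKDxIL15tg spleen, against 5495 in IL15tg spleen. The part of these markers in the proteasome differences was not tested.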

How the data were processed

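RNA was extracted with Trizol and labelled after 2 cycles of amplification from the 3' end, per the labels' protocols, which can lower probe sets far from a transcript's 3' end. The deposited values are linear intensities of 45101 probe sets, and the summarisation of probes and scaling of arrays are not given in the sources used here. Values were used as deposited, set to a floor of 16 (4.36% of values lay below it) and taken to log2. Control probe sets (64) were not tested. Of the others, 27022 had a mean log2 intensity in the upper part of the distribution, from the 40th percentile (5.58, or 47.7 in linear units) upward, and were tested.

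Group means were fitted to all 9 arrays with limma 3.58.1 (lmFit, eBayes) in R 4.3.3, and 3 differences were tested two-sided, with p-values adjusted by Benjamini-Hochberg over all tested probe sets and a threshold of 0.05. Tables were made with Python 3.11.15. Errors of log2 differences are standard errors. The number of arrays limits the precision. Exchanged pairs were compared by exact permutation tests over arrays. The labels call the replicates biological without saying what was separate, so p-values measure the spread between these samples.

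Deviations from group means were correlated between arrays to see whether replicate numbers pair samples. Between NKDxIL15tg spleen and IL15tg spleen, same-numbered arrays correlated at 0.163, 0.156 and 0.123. Different-numbered ones reached -0.319 to 0.155, so pairing is not clear there. Between NKDxIL15tg bone marrow and NKDxIL15tg spleen, same-numbered arrays correlated at 0.379, 0.258 and 0.228, against -0.349 to -0.007 for different-numbered ones. Between NKDxIL15tg bone marrow and IL15tg spleen the values were 0.170, -0.024 and 0.242, against -0.37 to 0.267. The numbers were treated as possible pairs in the first 2 comparisons, by the replicate block, and the main fits did not use them. Alternatives were 2 scalings, another floor, 2 filters, the replicate block, array weights, fits of only the groups compared, the mean of a gene's probe sets, and leaving out each array.

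Genes were named from the platform annotation, and neighbours, chromosomes and promoters come from RefSeq (GRCm38.p6). Members, lists and tests were chosen with earlier results of these data known. Described in full were the immune genes, their counterparts, up to 6 called members with the largest rise and fall in each comparison, and the brightest of each class not yet named. Other members named were chosen after their values were seen.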

Additional observations from a re-analysis of the deposited data

How the results depend on the processing

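Between NKDxIL15tg spleen and IL15tg spleen, 3725 probe sets were called, with 2102 at a floor of 64, 5685 with array weights and 1777 to 5511 when 1 array was left out. Between NKDxIL15tg bone marrow and NKDxIL15tg spleen the count was 14, with 5 at a floor of 64, 2 without a filter, 23 with the replicate block and 1 to 15 with 1 array left out. In NKDxIL15tg bone marrow against IL15tg spleen it was 5764, with 3466 at a floor of 64 and 3046 to 6384 with 1 array left out. Called members numbered 9, with 3 to 12 when 1 array was left out, between the spleens, and 18, with 8 to 22, in bone marrow against IL15tg spleen. The replicate block gave 8, 0 and 19 called members in the 3 comparisons. In the first 2, where the numbers were treated as possible pairs, the block changed no call of a named member beyond those given above. In bone marrow against IL15tg spleen, where they were not, the block gave Psmb7 a limma adjusted p of 0.00825. The difference of Psme1 between the spleens (-0.01) turned to 0.03 with a common 75th percentile or without IL15tg spleen replicate 2, to 0.01 without IL15tg spleen replicate 3 and to 0.14 without NKDxIL15tg spleen replicate 3 (range -0.12 to 0.14 with 1 array left out), and that of Psmb7 between bone marrow and spleen (-0.18) was 0.00 with array weights. The cause of these changes was not tested. Over the named members, 495 of the alternative values kept direction and side of the threshold, 41 lost the call, 3 gained one and 5 turned in sign. Psmb8 and Psmb9 kept their calls against IL15tg spleen under every alternative run, at 1.07 to 1.31 and 1.01 to 1.19 between the spleens.

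With 3 arrays a group, single-value permutation tests cannot pass the threshold. Dim probe sets, such as those of Psmd9, lie close to the filter of 47.7. The array measures RNA, not protein or assembled proteasomes.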
